A study of Mus musculus with 52 samples.

Results

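The genes described here encode the proteins of the cytosolic ribosome, taken as every gene whose platform symbol is Rpsa or starts with Rpl or Rps and a number, or with Rplp and a number, without the Rps6k kinases and without pseudogene symbols. Of the 9030 genes with a symbol on the array, 62 met this rule. They were 31 genes of the large subunit, 22 of the small subunit, the 3 stalk genes Rplp0, Rplp1 and Rplp2, and the 5 paralog copies Rpl7l1, Rpl22l1, Rpl36al, Rpl39l and Rps27l. The remaining gene, Rps19bp1, encodes a protein that binds RPS19 and is no ribosomal protein itself, so the name of the group does not cover it. Rps19bp1 stays in the counts of ribosomal protein genes below, apart from the start windows and the medians by subunit.

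A ribosome joins a small subunit, which reads the mRNA, to a large subunit, which forms the peptide bond, and each protein occurs once in most ribosomes, apart from the stalk proteins P1 and P2. Cells make these proteins in step with each other and with ribosomal RNA, and embryonic stem (ES) cells, which divide fast, hold large amounts of their mRNAs. Most of these mRNAs start with an unbroken run of pyrimidines, the terminal oligopyrimidine (TOP) tract, through which mTOR signalling controls how often they are translated.

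The study compared mouse ES cell lines for the source of the donor nucleus, though the labels do not say which lines had one. Its 7 lines were HM-1 and HM-1 NT, then #4 (B6), B6NT and B6PGA, and further PDCUMNT and ZFCUMNT, and the labels give no treatment, passage or genotype beyond these names and do not spell them out. The series description says that a pair of lines, which it does not name, had nuclei from cumulus cells (somatic cells that surround the egg) and differed in the cloning method. RNA of a line, 20 microgram per labelling, was set against RNA of another line on two-colour cDNA arrays, with 13 comparisons of 4 arrays each and the dyes exchanged between arrays 1 and 2 (second-named line in Cy5) and arrays 3 and 4 (second-named line in Cy3).

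Values are log2 ratios of the second-named over the first-named line, read as Cy5 over Cy3. The labels do not say which dye is the numerator, nor the base of the logarithm, so a positive value means higher in the second-named line under this reading, and all signs turn at once under the other. Each array measured 17620 to 20200 of 20794 probes. The array number is the only replicate label, and nothing says that arrays came from separate cultures, so the standard errors (SE) and p-values measure the spread between arrays, which may be technical. A ratio gives no level in a line, so the presence of ES cell markers could not be checked, only how they differed between lines. In such RNA from whole cultures, fewer cells of a type and less RNA per cell cannot be told apart. The protocol text mentions organs that were thawed and a pooled reference of control animals, which goes against the channel labels, where both dyes always carry an ES line. The channel labels were followed. On 46 of 52 arrays the turned ratios correlated above 0 with values predicted from the other comparisons, though weakly (median r 0.07 over 52). The 6 others were arrays 3 and 4 of #4 (B6) vs B6NT, arrays 1 and 3 of HM-1 NT vs ZFCUMNT, array 2 of PDCUMNT vs ZFCUMNT and array 3 of the comparison between HM-1 and #4 (B6). Over 58 genes of the group alone 36 of 52 arrays correlated above 0 (median r 0.12). Line values are therefore also given without #4 (B6) vs B6NT and HM-1 NT vs ZFCUMNT.

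The start sites show a feature the rule did not use. RefSeq start windows (build GRCm38.p6) were found for 53 of the 61 ribosomal protein genes (Rps19bp1 was left out), and 41 of them (77.4%) had a run of at least 8 consecutive C or T between 30 bases before and 50 bases after the annotated start, against 32.3% of 27025 genes of the table. The letters CCGGAA, on either strand of the 300-base window, occurred in 52.8% of the 53 genes and in 16.7% of all genes, and the letters AAGATGGC, also on either strand, in 9.43% and 3.19%. The 30 bases around the longest pyrimidine run are shown for the genes that were called between lines, because these carry the results below, with the run in capitals. Each window is written on the gene's own strand, and only those of Rpl13a and Rpl28 hold the annotated transcription start. Relative to the start, the first base shown was at -13 (Rpl28), -6 (Rpl13a) and -34 (Rps28). It was at 9 (Rpsa), 14 (Rpl26), 15 (Rpl37a), 16 (Rps15) and 21 (Rpl39). The Rpl39 run reaches the end of the stretch searched and may be cut. Whether any of these runs is the TOP tract of its mRNA was not tested. Rpl7, also called between lines, had no entry.

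Rpl39, chrX:37085173-37085202, minus strand: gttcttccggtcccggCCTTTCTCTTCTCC

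Rpl13a, chr7:45128722-45128751, minus strand: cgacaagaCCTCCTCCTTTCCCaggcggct

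Rpl26, chr11:68901579-68901608, plus strand: gcgtgtagTTCTCTTTCCTTTTgcggccat

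Rpl37a, chr1:72711274-72711303, plus strand: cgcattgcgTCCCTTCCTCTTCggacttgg

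Rpl28, chr7:4792952-4792981, plus strand: gcctctcgtgTCTCTCTTTCCgtctccggc

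Rps15, chr10:80292446-80292475, plus strand: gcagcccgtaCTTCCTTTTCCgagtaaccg

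Rpsa, chr9:120127774-120127803, plus strand: tccggccgcccgTCCTTTCgcgctacccgg

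Rps28, chr17:33824567-33824596, minus strand: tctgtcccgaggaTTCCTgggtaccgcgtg

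The first 6 of these carry runs of 11 to 14 pyrimidines, while Rpsa (7) and Rps28 (5) have none of the length counted. The median longest run was 10 over the windows of the ribosomal protein genes and 6 over all windows.

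In the 13 comparisons most of the 62 genes lay close to 0, and 10 gene and comparison pairs passed an adjusted p of 0.05 in limma, all with positive values. Over all features, between 0.101% and 1.22% passed in a comparison, and each share is given beside its comparison below. Rpl39, a short protein of the large subunit that lines the exit tunnel for the growing peptide, gave 4 of the 10. All of its calls were in comparisons that end in B6NT or B6PGA, with differences of 1.65- to 1.95-fold. The other 6 calls belonged to 6 different genes, each in 1 comparison.

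**Figure D1:**
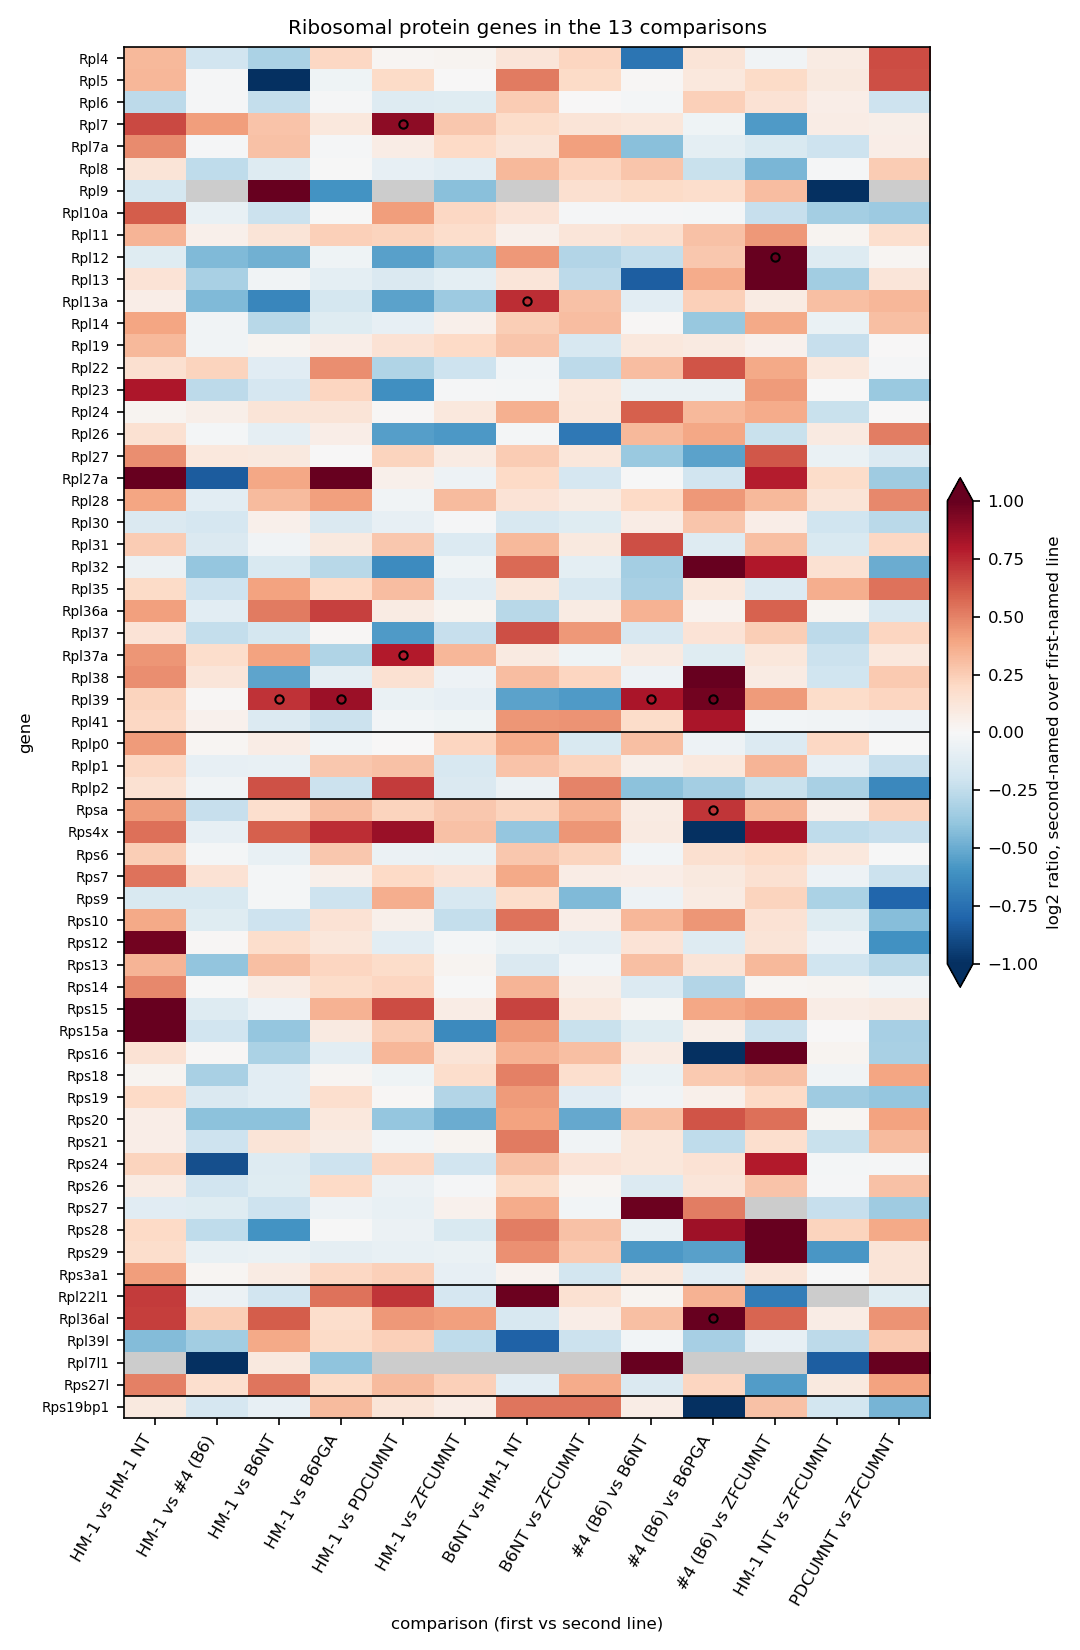
Fitted log2 ratio (colour, second-named over first-named line, clipped at -1 and 1) of each of the 62 genes (rows, grouped into large subunit, stalk, small subunit, paralog copies and Rps19bp1) in each comparison (columns); grey cells were not tested and circles mark the 10 calls. Circles stand in the Rpl39 row in 4 columns and nowhere else more than once in a row.

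Rpl39 on the arrays of #4 (B6) vs B6PGA was 1.19, 1.36, 0.68 and 0.63 in array order. All 4 values were above 0, and the pair with B6PGA in Cy5 was higher. The fitted ratio was 0.97 ± 0.16 (SE, n = 4), or 1.95-fold, with a limma adjusted p of 3.1e-04.

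In HM-1 vs B6PGA the Rpl39 values were 1.27, 0.96, 0.69 and 0.51, again all above 0. The fitted ratio was 0.86 ± 0.16 (n = 4, limma adjusted p = 0.0035). Both B6PGA comparisons stayed past the threshold when any 1 of their arrays was left out. They did not pass when each comparison was fitted alone (limma adjusted p = 0.609 for #4 (B6) vs B6PGA and 0.419 for HM-1 vs B6PGA), a setting under which none of the 10 calls was made, nor without the dye term (0.0959 and 0.309).

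In #4 (B6) vs B6NT the Rpl39 values were 1.14, 1.13, 0.70 and 0.31, with a fitted ratio of 0.82 ± 0.16 (n = 4, limma adjusted p = 0.0057). Without array 3, 1 of the arrays that went against the prediction, it was 0.72 with a limma adjusted p of 0.120. In HM-1 vs B6NT they were 1.25, 1.06, 0.43 and 0.15, with a fitted ratio of 0.72 ± 0.16 (n = 4, limma adjusted p = 0.039). All 4 arrays were above 0 here too, but leaving out any 1 of them took the adjusted p to between 0.0697 and 0.178. The 4 comparisons share lines, so they are not independent of each other.

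Where B6NT was the first-named line, Rpl39 had the opposite sign. The B6NT vs HM-1 NT arrays read -0.10, -0.04, -1.02 and -0.98, a fitted -0.53 ± 0.16 (n = 4, limma adjusted p = 0.107). The B6NT vs ZFCUMNT arrays read 0.01, -0.18, -1.19 and -0.90, a fitted -0.57 ± 0.16 (n = 4, limma adjusted p = 0.222). Neither passed the threshold, and in both the arrays with B6NT in Cy5 (arrays 3 and 4) were far below those with B6NT in Cy3.

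In the comparisons without B6NT or B6PGA the Rpl39 ratio lay between -0.08 (HM-1 vs ZFCUMNT) and 0.43 (#4 (B6) vs ZFCUMNT). None of these 7 passed. The value 0.43 ± 0.16 (limma adjusted p = 0.194) came from arrays at 0.95, 0.95, 0.55 and -0.73, the last apart from the rest. In HM-1 vs #4 (B6), which sets the low lines against each other, the ratio was 0.01 with a 95% interval from -0.31 to 0.34.

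**Figure D2:**
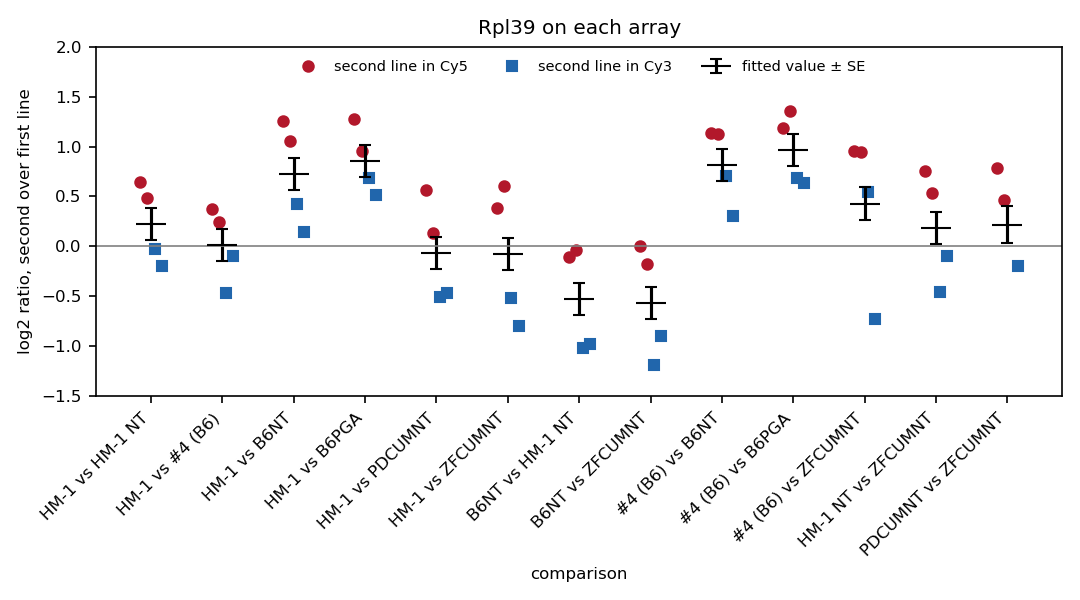
Log2 ratio of Rpl39 on each array (circles, second-named line in Cy5; squares, second-named line in Cy3) in the 13 comparisons, with the fitted value and its SE (bar). The 4 comparisons with every array above 0 are those that end in B6NT or B6PGA, and circles lie above squares throughout.

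The gap between circles and squares was fitted as 1 dye term per gene, which for Rpl39 was 0.41 ± 0.05 (n = 51 arrays, limma adjusted p = 1.2e-08). Such terms were common in the group: 27 of the 62 genes (43.5%) had a dye term past the threshold, 24 with Cy5 brighter and 3 with Cy3 brighter, against a background of 30.3% of all features. The median dye term was 0.16 over the 62 genes and 0.09 over all features. The highest terms were those of Rpl35 (0.67), Rps18 (0.63) and Rps29 (0.58), the lowest that of Rpl23 (-0.42). Without the dye term 1 call was left over the 13 comparisons, since the gap then counts as spread.

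The same 4 arrays of each comparison were also read through 6 line coefficients, which place each of the 7 lines relative to their mean and use direct and indirect comparisons together. In this fit 58 of the 62 genes could be tested (Rpl7l1, Rpl9, Rps27 and Rpl22l1 lacked measurements in some comparison), and 9 differed between lines by limma's F test, 15.5% against a background of 4.88% of 11291 features. They were Rpl39, Rpsa, Rpl13a, Rpl28, Rpl37a, Rps28, Rpl7, Rpl26 and Rps15. Without #4 (B6) vs B6NT and HM-1 NT vs ZFCUMNT all 9 remained called. These comparisons were picked because some of their arrays went against the prediction, so this is no independent check. The arrays of HM-1 vs #4 (B6) and PDCUMNT vs ZFCUMNT that went against the prediction stayed in that fit. Leaving out other comparisons took more away. Without HM-1 vs HM-1 NT, HM-1 vs B6NT or HM-1 vs PDCUMNT 4 of the 58 passed in each case, and without B6NT vs HM-1 NT 5 did.

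Rpl39 separated the lines most clearly (limma F test, adjusted p = 2.3e-10). B6PGA stood at 0.61 ± 0.10 and B6NT at 0.47 ± 0.07 above the mean of the 7 lines. The other lines lay at -0.07 ± 0.06 (ZFCUMNT), -0.11 ± 0.08 (HM-1 NT), -0.24 ± 0.06 (HM-1), -0.30 ± 0.10 (PDCUMNT) and -0.36 ± 0.07 (#4 (B6)). All 10 line pairs that set B6NT or B6PGA against one of the other 5 lines were called in limma, and 4 of these pairs were never hybridised together. The span from #4 (B6) to B6PGA was 0.97, or 1.96-fold. B6NT and B6PGA were not called against each other, and neither was any pair among the other 5 lines. The F test for Rpl39 stayed past the threshold under all 20 other settings and with each of the 52 arrays left out. These settings include the ratios as deposited, where line differences largely average out, so that setting is no check.

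Rpsa encodes the small-subunit protein uS2, also known as the 67-kDa laminin receptor. On the #4 (B6) vs B6PGA arrays it read 0.82, 0.76, 0.84 and 0.45, all above 0 and close to each other in both dye orientations. The fitted ratio was 0.72 ± 0.16 (n = 4, limma adjusted p = 0.012), 0.60 without array 3, where the adjusted p was 0.115. Between lines Rpsa was highest in B6PGA (0.28 ± 0.10) and lowest in #4 (B6) (-0.30 ± 0.07), with a limma F adjusted p of 2.7e-04. Called pairs were #4 (B6) to B6PGA (0.58 ± 0.12), #4 (B6) to ZFCUMNT (0.46 ± 0.10) and HM-1 to ZFCUMNT (0.33 ± 0.09).

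Rpl13a is a large-subunit protein that also takes part, off the ribosome, in silencing inflammatory mRNAs. Its arrays in B6NT vs HM-1 NT read 1.19, 1.29, 0.31 and 0.18, all above 0 with the Cy5 pair far higher. The fitted ratio of 0.74 ± 0.19 (n = 4, limma adjusted p = 0.041) was lost when any 1 array was left out (adjusted p from 0.104 to 0.140). Both of its probes gave about the same ratio, 0.73 and 0.75. Between lines it was highest in HM-1 (0.30 ± 0.07) and lowest in B6NT (-0.33 ± 0.09), a pattern unlike that of Rpl39, with a limma F adjusted p of 6.4e-04. It was called in 4 line pairs, the widest being HM-1 to B6NT at -0.64 ± 0.12.

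Rpl37a, a zinc-binding protein, and Rpl7, both of the large subunit, were the calls of HM-1 vs PDCUMNT. Rpl37a read 1.30, 0.83, 0.58 and 0.45, a fitted 0.79 ± 0.19 (n = 4, limma adjusted p = 0.022), with its probes at 0.76 and 0.83. Rpl7 read 1.13, 0.82, 0.78 and 0.85, a fitted 0.90 ± 0.22 (n = 4, limma adjusted p = 0.031). No array of either gene was below 0, and in Rpl7 the dye orientations overlapped. Leaving out arrays 1, 2 or 3 ended the Rpl37a call (adjusted p from 0.0516 to 0.145), and leaving out any 1 array ended that of Rpl7 (0.0614 to 0.131).

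Between lines both genes were lowest or near lowest in HM-1. Rpl7 stood at -0.38 ± 0.08 in HM-1 and between -0.10 and 0.24 in the 6 other lines (limma F adjusted p = 0.034). Rpl37a stood at -0.26 ± 0.06 in HM-1 and -0.38 ± 0.12 in B6PGA, and at 0.27 ± 0.12 in PDCUMNT and 0.24 ± 0.10 in HM-1 NT (limma F adjusted p = 0.011). Rpl37a was called for HM-1 to HM-1 NT (0.50 ± 0.12), a pair in which it had not passed in the direct comparison alone.

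Of the 4 other genes called between lines, none had passed in a single comparison. Rpl28 spanned 0.49, from PDCUMNT (-0.25 ± 0.11) to B6PGA (0.23 ± 0.11), with a limma F adjusted p of 0.0028, and was called for HM-1 to ZFCUMNT (0.36 ± 0.10). Rps28, a small-subunit protein near the mRNA exit, was lowest in #4 (B6) (-0.44 ± 0.13) and B6NT (-0.34 ± 0.13), with a limma F adjusted p of 0.032. Rps15, which contacts the decoding centre, was highest in HM-1 NT (0.42 ± 0.15) and lowest in #4 (B6) (-0.32 ± 0.13), and Rpl26, which binds near the exit tunnel, was lowest in PDCUMNT (-0.56 ± 0.15). Their limma F adjusted p-values were 0.041 and 0.040, and each was lost under 11 of 20 other settings. With single arrays left out Rpl26 was lost in 17 of 52 cases, Rps15 in 16, Rpl7 in 10 and Rps28 in 3, while Rpsa, Rpl13a, Rpl28 and Rpl37a were lost in 0. The probes of Rps28 followed each other over the comparisons (r = 0.75), those of Rps15 did not (r = -0.21).

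**Figure D3:**
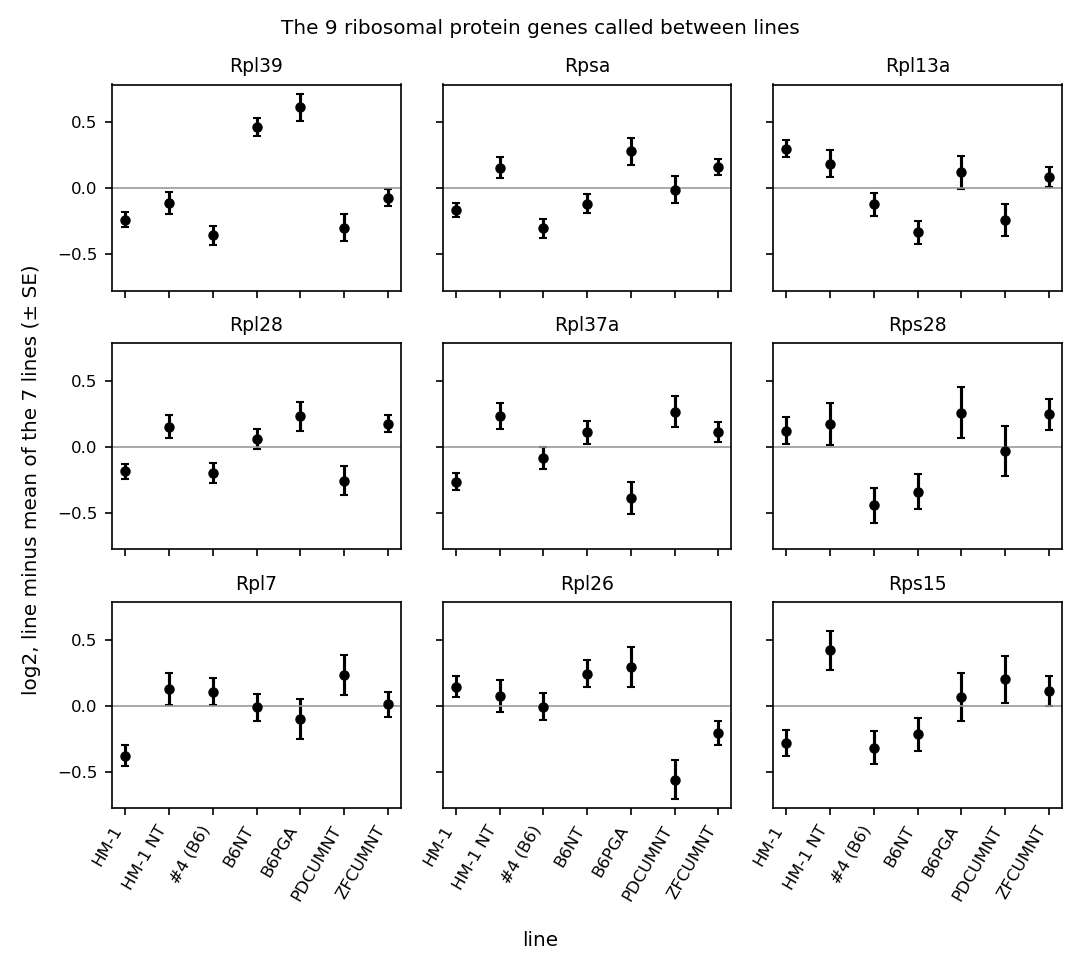
Line value minus the mean of the 7 lines (log2, ± SE of the line fit) for the 9 genes called by the F test, ordered by adjusted p. Rpl39 is above 0 in B6NT and B6PGA only, and the other 8 genes each order the lines in another way.

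Rps24, a small-subunit protein needed for maturing the 18S rRNA, missed the F test (adjusted p = 0.073) but was called for 1 line pair, HM-1 to #4 (B6), at -0.62 ± 0.15 (limma adjusted p = 0.019). Between these lines its arrays read -2.55, -1.30, 0.37 and -0.06, so the pair with #4 (B6) in Cy5 was far below the other pair. Over all 21 line pairs there were 25 calls in 9 genes, in 15 pairs, of which Rpl39 holds 10.

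Counted by pair over the 58 genes, HM-1 to PDCUMNT had 4 calls, Rpl13a, Rpl26, Rpl37a and Rpl7 (background 2.65%), and HM-1 to ZFCUMNT had 3, Rpl28, Rpl37a and Rpsa (background 1.96%). Pairs with 2 calls were HM-1 to HM-1 NT (Rpl37a and Rps15, background 1.36%), HM-1 to #4 (B6) (Rpl13a and Rps24, background 1.40%), HM-1 to B6NT (background 1.37%) and HM-1 NT to B6NT (background 0.629%), both with Rpl13a and Rpl39, and #4 (B6) to B6PGA (Rpl39 and Rpsa, background 0.948%). Rpsa was the 1 call of #4 (B6) to ZFCUMNT (background 0.505%).

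Rpl39 was the 1 call in 7 pairs, which were HM-1 to B6PGA (background 0.939%), HM-1 NT to B6PGA (0.381%), #4 (B6) to B6NT (0.585%), B6NT to PDCUMNT (0.204%), B6NT to ZFCUMNT (0.204%), B6PGA to PDCUMNT (0.540%) and B6PGA to ZFCUMNT (0.779%). The 6 pairs without a call in limma were HM-1 NT to #4 (B6) (background 0.230% called), #4 (B6) to PDCUMNT (0.762%), B6NT to B6PGA (0.372%), HM-1 NT to PDCUMNT (0.0354%), PDCUMNT to ZFCUMNT (0.221%) and HM-1 NT to ZFCUMNT (0.0266%). At an unadjusted p under 0.05, HM-1 NT to #4 (B6) had 17 of the 58 genes (29.3%, against 10.3% of all features). In the same order the other 5 pairs had 9 (15.5%, against 12.6%), 6 (10.3%, against 7.28%), 5 (8.62%, against 9.42%), 5 (8.62%, against 11.8%) and 4 (6.90%, against 8.75%), close to or below the share of all features.

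Among the paralog copies, Rpl36al, a near-identical copy of the X-linked Rpl36a, gave the highest ratio of the 10 calls, 1.92 ± 0.49 in #4 (B6) vs B6PGA (n = 4, limma adjusted p = 0.031), from arrays at 0.30, 1.12, 1.63 and 4.62. The last array stood far above the others. Without it the ratio was 0.83 (limma adjusted p = 0.654), and without array 3 it was 1.85 (limma adjusted p = 0.114). Rpl36a itself read -0.08, 0.11, 0.08 and 0.02 there, a fitted 0.03 ± 0.21. Whether the cDNA probe of either gene also binds the mRNA of the other was not tested.

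Rpl39l, the autosomal copy of Rpl39 with highest expression in testis, had the sign of Rpl39 in HM-1 vs B6NT (0.38 ± 0.24) and in B6NT vs HM-1 NT, and the opposite sign in #4 (B6) vs B6PGA. In the last its arrays read -0.50, -0.49 and 0.28, array 4 not being measured, a fitted -0.33 ± 0.28. Its lowest ratio was -0.81 ± 0.24 in B6NT vs HM-1 NT, from arrays at -0.244, -0.476, -1.397 and -1.127 (limma adjusted p = 0.095). Between lines it had no call (limma F adjusted p = 0.407), and its highest line was B6NT (0.28 ± 0.12).

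Rpl22l1 read 0.06, 1.12, 0.30 and 2.46 in B6NT vs HM-1 NT, the highest ratio of that comparison at 0.98 ± 0.43 (limma adjusted p = 0.392). Its counterpart Rpl22 was highest in B6PGA (0.44 ± 0.18) and had no call between lines (limma F adjusted p = 0.457). Rps27l, a p53 target, ran from -0.28 ± 0.09 in HM-1 to 0.15 ± 0.12 in #4 (B6) without a call (limma F adjusted p = 0.411). Its counterpart Rps27 read 1.901, 1.822, -0.051 and 0.248 in #4 (B6) vs B6NT, so that only the arrays with B6NT in Cy5 were high. Rpl7l1 was tested in 6 comparisons and held the extremes of 3 of them, 2.04 ± 0.77 in PDCUMNT vs ZFCUMNT, 1.12 ± 0.66 in #4 (B6) vs B6NT and -1.95 ± 0.77 in HM-1 vs #4 (B6), none of them called.

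The 3 stalk genes, whose products recruit the elongation factors, had no call in any comparison or between lines. Rplp0 ranged from -0.12 ± 0.12 (B6PGA) to 0.20 ± 0.10 (HM-1 NT) and Rplp1 from -0.19 ± 0.10 (#4 (B6)) to 0.23 ± 0.14 (PDCUMNT). Rplp2 ranged more widely, from -0.31 ± 0.19 in B6PGA to 0.56 ± 0.19 in PDCUMNT (limma F adjusted p = 0.244).

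Rps6, Rpl5, Rpl11 and Rps19, known for roles in signalling or disease, had no call either. Rps6, the target of the S6 kinases, ranged from -0.14 ± 0.07 (B6NT) to 0.15 ± 0.10 (B6PGA). Rpl5 and Rpl11, which hold back Mdm2 when ribosome assembly fails, had F adjusted p-values of 0.464 and 0.388 in limma. Rpl5 was the lowest gene of HM-1 vs B6NT at -1.09 ± 0.34 (limma adjusted p = 0.251), from arrays at -0.50, -3.03, -0.44 and -0.41, where array 2 stood far below the rest. Rps19, mutated in Diamond-Blackfan anaemia, ranged from -0.17 ± 0.09 (ZFCUMNT) to 0.24 ± 0.11 (HM-1 NT).

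Of the other extremes, Rpl12, a protein at the base of the stalk, was the call of #4 (B6) vs ZFCUMNT. It read 0.87, 3.09, 0.38 and -0.01, a fitted 1.08 ± 0.28 (n = 4, limma adjusted p = 0.045). Array 2 set this value: without it the ratio was 0.46 (limma adjusted p = 0.550), and without array 1 the adjusted p was 0.0857. Rps16 was higher in the same comparison, at 1.01, 1.18, 1.18 and 1.11 on the 4 arrays, close to each other in both orientations, but did not pass (1.12 ± 0.30, limma adjusted p = 0.057). In #4 (B6) vs B6PGA the same gene read -1.26, 0.97, -3.09 and -1.08 (-1.12 ± 0.30, limma adjusted p = 0.052).

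X-linked Rps4x was the lowest gene of #4 (B6) vs B6PGA, at -1.32 ± 0.40 (limma adjusted p = 0.099) from arrays at -1.14, -2.05, -3.72 and 1.63, which lie on both sides of 0. In HM-1 vs B6PGA it was 0.74 ± 0.40, so the comparisons that end in B6PGA had opposite signs. Rpl27a was highest in HM-1 vs B6PGA (1.40 ± 0.49, limma adjusted p = 0.299), with arrays at 0.89, 0.20, 3.97 and 0.55, and Rps15a in HM-1 vs HM-1 NT (1.23 ± 0.43, limma adjusted p = 0.353), with arrays at -1.09, 0.04, 4.51 and 1.45. Both rest on 1 array above the rest.

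Rpl9, one of the genes left out of the line fit, was the highest of HM-1 vs B6NT at 1.14 ± 0.70, from arrays at -0.98, 0.59, 5.05 and -0.11, so that array 3 alone was far above 0. It was the lowest of HM-1 vs B6PGA (-0.60 ± 0.70) and of HM-1 NT vs ZFCUMNT (-1.49 ± 0.81), with no call in either. Rpl26 was the lowest of B6NT vs ZFCUMNT at -0.72 ± 0.23, from arrays at -0.11, -0.51, -1.21 and -1.03, all below 0 (limma adjusted p = 0.358). Rps15a was the lowest of HM-1 vs ZFCUMNT at -0.63 ± 0.43, also with all arrays below 0 (-1.10, -0.64, -0.35 and -0.44).

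Several extremes rested on a single array or on 1 dye orientation. Rpl32 was the lowest of HM-1 vs PDCUMNT (-0.63 ± 0.43) with array 1 at -2.08 and the others between -0.19 and -0.09, and Rps9 the lowest of PDCUMNT vs ZFCUMNT (-0.80 ± 0.41) with array 3 at -2.41. Rpl13, the lowest of #4 (B6) vs B6NT (-0.82 ± 0.41), read -0.46, 0.18 and -2.13 on 3 arrays. Rpl35, the highest of HM-1 NT vs ZFCUMNT (0.36 ± 0.40), read 1.22 and 2.42 with ZFCUMNT in Cy5 and -0.92 and -1.28 with it in Cy3, and it also had the highest dye term. Rpl7 in HM-1 vs #4 (B6) (0.42 ± 0.22) and Rpl36al in HM-1 vs ZFCUMNT (0.41 ± 0.49) were the highest of their comparisons and split by orientation too. Rps19bp1 was the highest of B6NT vs ZFCUMNT (0.54 ± 0.34), Rpl22l1 the lowest of #4 (B6) vs ZFCUMNT (-0.69 ± 0.50) and Rpl39l the lowest of HM-1 vs HM-1 NT (-0.43 ± 0.24), none of them called.

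Rpl36a, X-linked like Rpl39, stood at 0.18 ± 0.10 in B6NT and 0.13 ± 0.14 in B6PGA and lowest in HM-1 and #4 (B6) (both -0.23), with a limma F adjusted p of 0.098. Rps4x, the third X-linked gene of the group, stood at 0.16 ± 0.20 in B6NT and -0.51 ± 0.28 in B6PGA (limma F adjusted p = 0.316).

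Each comparison was also read over the whole group, by its median and by the number of positive values. In HM-1 vs HM-1 NT the median of 61 genes was 0.25 and 53 were positive, while the median of all features was -0.05 and 44.8% of them were positive. The medians on the 4 arrays were 0.41, 0.31, 0.26 and 0.21, each above the median of all features on the same array by 0.25 to 0.38. This was the only comparison whose arrays all had a median above 0.2, in both dye orientations. Without array 2 the median of the genes was 0.38. No single gene passed (0 of 61 in limma, background 0.254% called), and 12 stood at an unadjusted p under 0.05 (19.7%, against 6.41% of all features). Rps15a (1.23), Rpl27a (1.23), Rps15 (1.05) and Rps12 (0.97) had the highest ratios. These were uneven between arrays. In array order Rpl27a read 0.14, -0.35, 1.68 and 3.43 and Rps12 -0.04, -0.03, 1.75 and 2.20, so both were high only with HM-1 NT in Cy3. Rps15 read 0.11, 0.71, 0.77 and 2.59.

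In B6NT vs HM-1 NT, the other comparison that ends in HM-1 NT, the median was 0.26 with 47 of 60 genes positive, against 0.01 over all features. The array medians were 0.32, 0.44, 0.11 and -0.03, so array 4 did not share the shift. Rpl13a was the 1 call (background 1.04%). In HM-1 NT vs ZFCUMNT, where the sign would turn, the median was -0.03 with 36 of 61 negative, the arrays at 0.43, -0.04, -0.24 and -0.49 disagreed, and none was called (0 of 61 in limma, background 0.292% called). At an unadjusted p under 0.05 there were also 0, against 8.71% of all features. These comparisons share HM-1 NT and are given side by side.

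With HM-1 first, the remaining medians were smaller. HM-1 vs #4 (B6) had -0.10, with 45 of 61 genes negative and no call (background 0.219% called), and 3 stood at an unadjusted p under 0.05 in limma (4.92%, against 3.91% of all features). HM-1 vs B6NT had -0.04 and the 1 Rpl39 call (background 0.170%), HM-1 vs B6PGA 0.08 and the 1 Rpl39 call (background 0.494%), and HM-1 vs PDCUMNT 0.06 and 2 calls (background 1.14%). HM-1 vs ZFCUMNT had -0.02 and no call (background 0.101% called), and 1 of 61 stood at an unadjusted p under 0.05 in limma (1.64%, against 4.82% of all features). In all 5 of these the medians of arrays 1 and 2 were above 0 and those of arrays 3 and 4 below 0, so the dye orientations had opposite signs.

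With #4 (B6) first, 46 of 60 genes were positive in #4 (B6) vs ZFCUMNT (median 0.23, against 0.08 over all features) with the Rpl12 call (background 0.935%). In #4 (B6) vs B6PGA 40 of 61 were positive (median 0.12) with 3 calls, Rpl39, Rpsa and Rpl36al (background 1.22%). #4 (B6) vs B6NT had a median of 0.07 and the 1 Rpl39 call (background 0.245%). B6NT vs ZFCUMNT (median 0.08, background 0.124% called) and PDCUMNT vs ZFCUMNT (0.02, background 0.763% called) had no call. At an unadjusted p under 0.05 in limma stood 3 of 61 in the first (4.92%, against 5.21% of all features) and 5 of 61 in the second (8.20%, against 11.8%), so the group was at or below the rest of the array. All features in PDCUMNT vs ZFCUMNT had a median of 0.11, so the group lay below the array as a whole there.

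**Figure D4:**
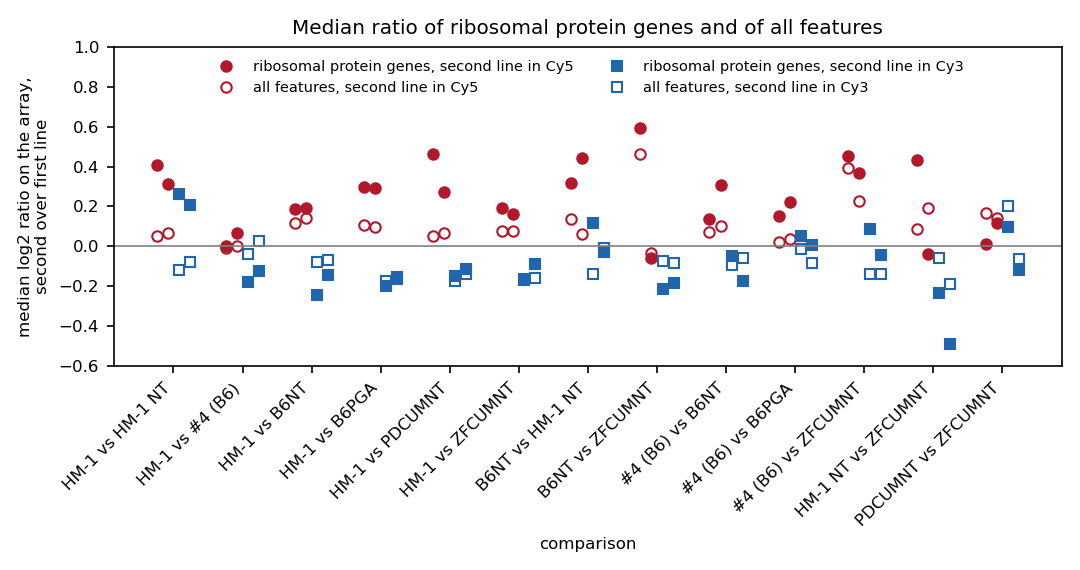
Median log2 ratio on each array over the ribosomal protein genes (filled) and over all features (open), with the second-named line in Cy5 (circles) or Cy3 (squares). In HM-1 vs HM-1 NT all 4 filled symbols lie above 0.2, while in 6 other comparisons the filled circles lie above 0 and the filled squares below it.

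By line, the group stood highest in HM-1 NT, where 52 of 58 genes were above the mean of the lines (median 0.20, against 0.01 over all features, of which 52.3% were above). It was the highest line for 24 of the 58. In #4 (B6) 48 of 58 were below (median -0.12, all features 0.00), and it was the lowest line for 21. The other medians were -0.09 (B6NT), -0.04 (HM-1), 0.00 (PDCUMNT), 0.05 (B6PGA) and 0.05 (ZFCUMNT). Large- and small-subunit genes had like medians in HM-1 NT (0.17 and 0.20) and in #4 (B6) (-0.12 and -0.13). Without #4 (B6) vs B6NT and HM-1 NT vs ZFCUMNT the medians were 0.22 in HM-1 NT and -0.15 in #4 (B6). HM-1 NT then rests on HM-1 vs HM-1 NT and B6NT vs HM-1 NT, whose medians were 0.25 and 0.26. HM-1 NT vs ZFCUMNT, left out here, had a median of -0.03, so this setting cannot check the place of HM-1 NT. With the ratios left as deposited HM-1 NT had -0.03. Both dye orientations hold equally many arrays, so line differences largely average out in that setting, and it cannot check the place of HM-1 NT.

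**Figure D5:**
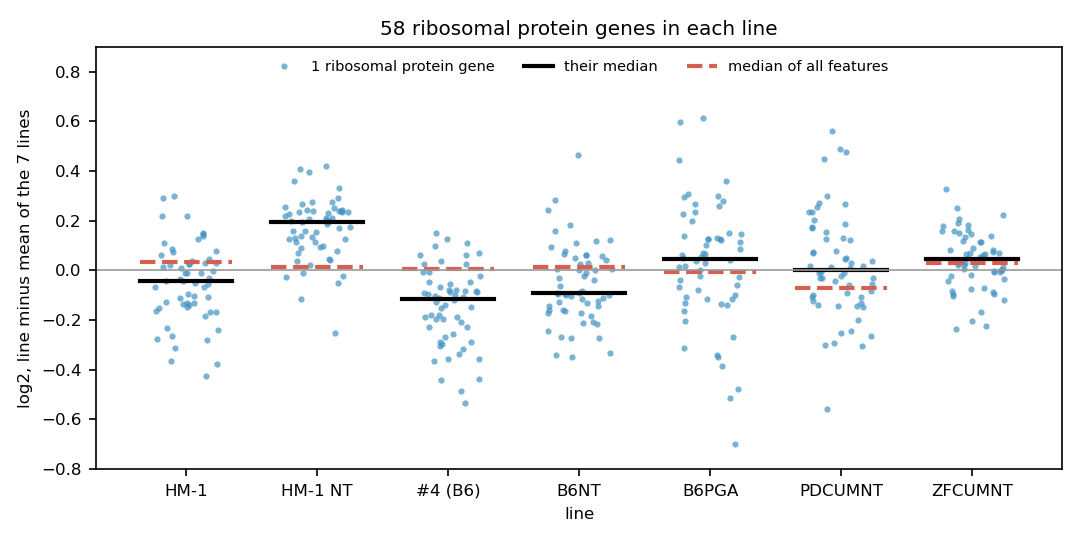
Values of 58 genes of the group (points, Rps19bp1 among them) in each line relative to the mean of the 7 lines (log2). Bars give their median (solid) and the median of all features (dashed). In HM-1 NT 52 points lie above 0 and in #4 (B6) 48 lie below it.

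The span of single genes over the 7 lines had a median of 0.53 over the 58 genes, from 0.21 to 1.18, and of 0.65 over all features, with residual SDs of 0.53 and 0.76. Over pairs of the 58 genes the median correlation of the 13 comparison values was 0.16, against 0.02 over pairs of all features, as a description of 13 values that share lines and dyes. A departure of the 13 comparisons from 7 line values was called for 0 of 58 genes in limma's F test (0% of all features called). At an unadjusted p under 0.05 stood 0 of the 58, against 6.25% of all features. As no feature of the array was called, the lack of calls cannot show that the comparisons of these genes add up.

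Markers of other cells moved with some of these lines. Of 10 fibroblast genes that could mark feeder cells, such as Col1a1, Col3a1, Lox and Vim, all 10 were above the line mean in B6PGA (median 0.40), 8 in HM-1 NT (0.11), 7 in #4 (B6) (0.14) and 0 in HM-1 (-0.35) and B6NT (-0.26). Of these 10 genes 7 passed limma's F test (background 4.88%). Rpl39 was high in both B6PGA and B6NT, which lie on opposite sides of the mean in this list. Of 10 ES cell markers 8 were below the mean in #4 (B6) (median -0.28), where Dppa5a stood at -1.56 and Klf4 at -0.90. Other lines differed in such markers too. Against HM-1, Zfp42 was called in #4 (B6) (-2.85), B6NT (-2.90), B6PGA (-2.14), PDCUMNT (-2.53) and ZFCUMNT (-2.44). It was also called in B6NT vs HM-1 NT (2.24). In HM-1 NT, where the ribosomal protein genes stood highest, 6 of the 10 ES cell markers were above the mean, as many as in B6NT, PDCUMNT and ZFCUMNT. The part of feeder or ES cell markers in these results was not tested.

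Both comparisons of a line with the line of the same name and NT were set against each other. The median was 0.06 in #4 (B6) vs B6NT and 0.25 on the HM-1 side, over the 61 genes tested in both. For single genes the difference was not called: 0 of 61 passed in limma (lowest adjusted p = 0.612, background 0.197% called), and 6 stood at an unadjusted p under 0.05 (9.84%, against 5.18% of all features). That of Rpl39 was -0.60 ± 0.23, from 0.22 on the HM-1 side and 0.82 on the B6 side. The spelling of the names is the only ground for setting them side by side.

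Other genes of the translation machinery were read from lists of their functions. Of 53 ribosome biogenesis and nucleolar factors on the array, 6 genes gave 6 positive and 2 negative calls over the 13 comparisons. Over all features, 0.101% to 1.22% passed in a comparison, which is the background for the calls of this list and the next ones. Brix1, needed for the large subunit, passed with PDCUMNT (0.87 ± 0.18, limma adjusted p = 0.0073) and with HM-1 NT (0.81 ± 0.18, limma adjusted p = 0.027) set against HM-1. Ddx21, a nucleolar helicase, was called in HM-1 vs PDCUMNT (0.88 ± 0.22, limma adjusted p = 0.032), and Rrp1b in #4 (B6) vs B6NT (1.80 ± 0.38, limma adjusted p = 0.013). The remaining calls were 2 of Tsr2, given below, and those of Ddx27 and of Rrs1, the last negative. In the line fit 5 of 45 passed (Tsr2, Brix1, Rrp1, Imp4 and Ddx21, background 4.88%). In HM-1 NT 30 of 45 were above the mean, with a median of 0.09, where 52.3% of all features were above.

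Of 15 elongation factors and other genes with TOP mRNAs, 13 were positive in HM-1 vs HM-1 NT (median 0.29), and all 13 in the line fit were above the mean in HM-1 NT (median 0.19). Only Vim and Btf3 were called in single comparisons, with 2 positive and 2 negative calls. All of these but the Btf3 call were of Vim, which is also in the fibroblast list above. In the line fit 2 of 13 passed, Hnrnpa1 and Vim (background 4.88%). Of 30 translation initiation factors 23 were positive in HM-1 vs HM-1 NT (median 0.35), and the list had 1 call over the 13 comparisons, the X-linked Eif2s3x in HM-1 vs PDCUMNT (1.56 ± 0.40, limma adjusted p = 0.040). Between lines 5 of 25 passed, Eif1ax, Eif3c, Eif3l, Eif2s3x and Eif2b5 (background 4.88%).

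The mitochondrial ribosomal protein genes, which build another ribosome, were also mostly above the mean in HM-1 NT, 33 of 45 (median 0.15). Over the 13 comparisons 5 of the 61 gave 3 positive and 2 negative calls, the highest being Mrps18a in #4 (B6) vs B6NT (3.02 ± 0.35, limma adjusted p = 1.2e-06). None of the 45 in the line fit passed limma's F test between lines, beside 9 of 58 cytosolic ones (background 4.88%). At an unadjusted p under 0.05 stood 8 of the 45, where 18.1% of all features did. The 13 S6 kinase and mTOR genes gave 1 negative call, Rps6ka5 in #4 (B6) vs B6PGA (-1.56 ± 0.34, limma adjusted p = 0.0088).

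The gene most like Rpl39 over the 13 fitted ratios was Tsr2, with a Pearson r of 0.95, followed by Zfand1 (0.92), Prps1 (0.92), Lefty2 (0.88) and Clec11a (0.88). The median r with Rpl39 was 0.00 over all features and -0.02 over the other ribosomal protein genes, of which Rpl22 (0.73), Rpl36a (0.62) and Rpl26 (0.60) came highest and Rpl14 (-0.56) lowest. Tsr2 and Prps1 are X-linked, as Rpl39 is, while Zfand1, Lefty2 and Clec11a are autosomal. The 13 values share lines and dyes, and no p is given. Tsr2, which escorts Rps26 to the pre-ribosome, was 0.75 ± 0.10 in B6NT and 0.69 ± 0.15 in B6PGA and between -0.46 and -0.08 in the other lines (limma F adjusted p = 2.0e-09). In B6NT vs HM-1 NT it read -0.62, -0.68, -2.02 and -1.57, all below 0, with a fitted -1.22 ± 0.24 (n = 4, limma adjusted p = 0.0038). In HM-1 vs B6PGA it read 1.23, 0.84, 0.62 and 1.43, all above 0, with a fitted 1.03 ± 0.24 (n = 4, limma adjusted p = 0.023). Rps26 itself had no call between lines (limma F adjusted p = 0.326).

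Rpsa was most like B4galt4 (r = 0.90), Srm, the spermidine synthase (0.83), 4931422A03Rik (0.82), Tshb (0.81) and Mrpl16 (0.78). Within the group Rpl36al (0.67), Rpl11 (0.66) and Rpl28 (0.65) came highest and Rps19bp1 (-0.30), which is no ribosomal protein gene, lowest. The median over the other ribosomal protein genes was 0.26, against 0.00 over all features.

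For 23 of the 62 genes more than 1 probe was present, which shows how far a single probe can be read. The mean correlation between probes of a gene over the comparisons had a median of 0.19, was above 0.5 for 4 genes (Rpl13a, Rps28, Rpl37a and Rpl8) and below 0 for 6. Rpl39, Rpsa and Rpl7 have 1 probe each, so their ratios have no such check.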

How the data were processed

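The deposited log2 ratios, 1 per probe and array (the authors' processed values, with 20794 probes and 52 arrays), were used; their normalization and the base of the logarithm are not given in the sources used here, and log2 is a reading. Per the labels' channels, ratios of arrays with the second-named line in Cy3 were turned. On each array 20 to 174 probes shared 1 top value (15.717 to 17.351), which was set to not measured; it touched 7 of 4836 values of the ribosomal protein genes, and 159 were missing. Probes of a gene were averaged.

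limma 3.58.1 (R 4.3.3) fitted 13 comparison coefficients and a dye term to all 17053 features, with p-values adjusted by Benjamini-Hochberg over all features tested in a comparison and a threshold of 0.05. A feature was tested where at least 3 of 4 arrays, with both dye orientations, measured it. A further fit used 6 line coefficients and the dye term, for the 11291 features tested in all comparisons. The fits were tested on simulated data. Start windows come from RefSeq (GRCm38.p6).

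Genes named are the highest and lowest of each comparison, all called genes, paralog copies and their counterparts, stalk genes, X-linked genes, Rps6, Rpl5, Rpl11 and Rps19. The genes and lists were chosen with earlier results of these data known. Other fits were tried with other scalings, filters, weights, spread estimates and left-out arrays or comparisons.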

Additional observations from a re-analysis of the deposited data

Results flagged for a closer look

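Of 55 sets of 4 arrays checked (the group's medians in each comparison and the genes whose arrays are described), 3 had an array that lay far from the other 3 by Dixon's test at the 95% level, and chance alone gives about 1 in 20. Rpl5 was at -3.03 on array 2 of HM-1 vs B6NT, with the others between -0.50 and -0.41. Rpl32 was at -2.08 on array 1 of HM-1 vs PDCUMNT, with the others between -0.19 and -0.09. Rps9 was at -2.41 on array 3 of PDCUMNT vs ZFCUMNT, with the others between -0.40 and -0.03. All 3 genes were the lowest of their comparison and none was called.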

How the results depend on the processing

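Of 10 calls in single comparisons, 0 were made when each comparison was fitted alone, with 0 in each of the 7 comparisons that had one. Without the dye term 1 was made in all, in HM-1 vs PDCUMNT (1), with 0 in the other 6, and 2 genes differed between lines. Ratios as deposited, not turned by dye, let line differences largely average out between the orientations, so that setting describes dye bias and not the lines. In it there were 29 calls and 18 between lines. By comparison these were 3 in HM-1 vs HM-1 NT, 7 in #4 (B6) vs ZFCUMNT, 5 in HM-1 vs #4 (B6), 6 in HM-1 NT vs ZFCUMNT, 3 in PDCUMNT vs ZFCUMNT and 0 in HM-1 vs B6NT, B6PGA and PDCUMNT and #4 (B6) vs B6NT. The medians were then 0.063 (HM-1 vs HM-1 NT), 0.0945 (vs #4 (B6)), 0.21 (vs B6NT) and 0.20 (vs ZFCUMNT), those of the lines -0.15 (HM-1) and -0.027 (HM-1 NT), and Rpl36al in #4 (B6) vs B6PGA was -1.21. Scaling arrays to equal spread gave 3 calls in HM-1 vs B6NT and in HM-1 vs B6PGA, 2 in B6NT vs ZFCUMNT and 0 in #4 (B6) vs ZFCUMNT. Array weights gave 3, 2, 1, 2, 1 and 0 calls in HM-1 vs B6NT, HM-1 vs B6PGA, HM-1 vs ZFCUMNT, B6NT vs HM-1 NT, #4 (B6) vs B6PGA and #4 (B6) vs ZFCUMNT. Subtracting array medians left 0 in HM-1 vs B6NT. Keeping top values gave 5 in #4 (B6) vs B6PGA and 3 in #4 (B6) vs ZFCUMNT, and single probes gave 6 in #4 (B6) vs B6PGA. Array numbers did not pair arrays (mean correlation of deviations -0.04 to -0.03), and the replicate block left 0 calls in #4 (B6) vs ZFCUMNT. Between lines, 4, 4, 4 and 5 genes passed without HM-1 vs HM-1 NT, HM-1 vs B6NT, HM-1 vs PDCUMNT or B6NT vs HM-1 NT. Fewer arrays enter there, as also without #4 (B6) vs B6NT and HM-1 NT vs ZFCUMNT together, where all 9 passed. With 1 array left out, calls numbered 7 to 14 in all and 6 to 9 between lines. Ranges of 0 to 1 held for HM-1 vs #4 (B6) (1 without array 3), HM-1 vs HM-1 NT (1 without array 1), HM-1 vs PDCUMNT (1 without array 4) and #4 (B6) vs B6NT (0 without array 3), 0 in HM-1 vs B6NT and B6NT vs HM-1 NT, 2 to 4 in #4 (B6) vs B6PGA and 0 to 4 in #4 (B6) vs ZFCUMNT (4 without array 4). The median of HM-1 vs HM-1 NT was 0.19 to 0.38. Other than by construction, the cause of these changes was not tested. With 4 arrays a comparison, precision is limited by their number, and ratios give no signal over background.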

Other observations

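The pattern of Rpl39 led to a look at the X chromosome, chosen after its values were seen. Of 155 X-linked genes in the line fit 28 differed between lines by limma's F test (18.1%), and of 6296 autosomal genes 315 did (5.00%). The 28 include Rpl39, which prompted the look, and Tsr2 and Prps1, named above among the genes most like it. In B6NT 118 of the 155 were above the mean of the lines (76.1%, median 0.15), where 51.4% of the autosomal genes were. In B6PGA 63.2% were (median 0.10), against 49.1% of autosomal genes, and in #4 (B6) 51.0%, against 49.7%. The X-linked share was below the autosomal one in HM-1 (39.4% against 55.9%), HM-1 NT (42.6% against 54.9%), ZFCUMNT (45.2% against 58.8%) and PDCUMNT (31.0% against 40.7%, with medians of -0.15 and -0.06).

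Genes with their highest value in B6NT included Tsr2 (0.75, limma F adjusted p = 2.0e-09) and Rab9 (0.68, limma F adjusted p = 7.0e-10). Others were Prps1, a phosphoribosyl pyrophosphate synthetase (0.72, limma F adjusted p = 6.0e-08), and Rbm3, a cold-induced RNA-binding protein (0.66, limma F adjusted p = 3.7e-08). Rhox5, a homeobox gene (0.74, limma F adjusted p = 0.0031), was highest there too. Bcap31 (0.48), Nkap (0.60) and Wdr45 (0.93) were highest in B6PGA, and Cox7b (0.91), Nr0b1 (0.90) and Eif2s3x (0.77) in PDCUMNT. Mid1 was highest in HM-1 (0.63), so the called X-linked genes did not share one order of the lines.

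Lefty2, a Nodal antagonist that came among the genes most like Rpl39 over the 13 comparisons, spread further than Rpl39 between lines. It stood at 1.32 ± 0.12 in B6NT, 1.02 ± 0.17 in B6PGA and 0.93 ± 0.09 in HM-1, and between -1.17 and -0.40 in the other 4 lines (limma F adjusted p = 1.5e-19). Rpl39 was at -0.24 in HM-1, so the likeness did not hold for that line.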
